A study of Rattus norvegicus with 5 samples.

Results

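The genes described here belong to the integrated stress response, the pathway in which the transcription factor ATF4 is made when translation is slowed. They were chosen by name: Atf3, Atf4, Ddit3, Ddit4, Chac1, Trib3, Asns, Sesn2, Psat1 and Phgdh, of which Sesn2 had no probe set with its symbol in the platform annotation. The other 9 had 1 probe set each, out of 18166 genes that the annotation gives a symbol of their own. The study's limit for a measured gene, a log2 signal of 5, was reached in some array by 8 of the 9, and by 4033 genes in all, called the genes kept. Phgdh stayed below it in every array. No value of a member was equal in any pair of arrays, although equal values were common on these arrays, at up to 27.7% of all probe sets in a pair.

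In the integrated stress response, kinases that sense unfolded protein, missing amino acids, viral RNA or heme shortage phosphorylate the initiation factor eIF2 alpha. Most translation then slows, while that of Atf4 mRNA increases, so the activity of ATF4 can change without its mRNA level. ATF4 turns on genes of amino acid supply such as Asns, Psat1 and Phgdh, the stress factors Atf3, Ddit3 and Trib3, and Chac1, Ddit4 and Sesn2. Atf3 also answers to other inputs, among them p53 and MAP kinases, and was therefore set apart from the other members.

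Lenses of 6-week-old male Sprague Dawley rats had been cultured whole in serum-free medium, and the RNA of the whole lens, epithelium and fiber cells together, was read on 5 arrays. The treated arrays were MMS Day 2 and MMS Day 4 (methyl methanesulfonate at 1 mM, which alkylates DNA) and Bleomycin Day 2 and Bleomycin Day 6 (800 µg/mL, which breaks DNA strands). Control was a lens cultured for 4 days without either drug, so MMS Day 4 alone matched it in days of culture. With 1 array per condition no spread between lenses is known, no test or p-value is possible, and an order of levels cannot be told from the variation between lenses. Values are log2 signals normalized by the authors, differences are taken from Control except where both arrays are named, and a difference of 1 is 2-fold, the limit for a call. Where 4 values or counts follow each other with no label, they are in the order MMS Day 2 and Day 4, then Bleomycin Day 2 and Day 6. All treated arrays were set against the same Control array.

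Markers showed a lens whose fiber cells were well measured. The 5 fiber markers on the array (Cryab, Mip, Bfsp1, Lim2 and Grifin) had medians within 0.09 of Control in every treated array. The 4 epithelium markers Pax6, Foxe3, Cdh1 and Gja1 were below Control throughout, with medians of -1.78 and -3.03 under MMS and -2.93 and -3.13 under Bleomycin. On the array were 2 of 3 retina, 1 of 4 blood, 3 of 3 macrophage and 1 of 3 endothelium markers sought. These stayed below a signal of 5 in all arrays. In whole lenses, fewer cells of a type and less RNA per cell cannot be told apart. Of the fibroblast markers, Col1a1 and Col1a2 stayed below a signal of 5, while Pdgfra had between 3.70 and 4.22 in the treated arrays, against 7.20 in Control. The kept genes as a whole lay slightly below Control, with medians of -0.15, -0.46, -0.14 and -0.28.

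The promoters of 3 genes are shown because they carry the element through which ATF4 acts, and because their genes had unlike responses to the drugs. They span 250 bases before to 50 bases after the RefSeq start site, on build GRCr8, at chr3:126795881-126796180 (plus strand, Chac1), chr3:161275484-161275783 (minus strand, Trib3) and chr1:190645852-190646151 (minus strand, Nupr1, a stress-induced chromatin protein from a list of other ATF4 targets). Capitals mark matches to the C/EBP-ATF response element, spelled TGATGNAA and searched on both strands.
Chac1: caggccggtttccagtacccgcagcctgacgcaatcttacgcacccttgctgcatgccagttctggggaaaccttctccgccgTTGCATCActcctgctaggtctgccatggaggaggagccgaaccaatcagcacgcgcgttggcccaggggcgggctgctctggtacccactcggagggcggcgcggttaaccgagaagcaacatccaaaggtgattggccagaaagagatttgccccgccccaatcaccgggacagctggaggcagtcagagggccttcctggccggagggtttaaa
Trib3: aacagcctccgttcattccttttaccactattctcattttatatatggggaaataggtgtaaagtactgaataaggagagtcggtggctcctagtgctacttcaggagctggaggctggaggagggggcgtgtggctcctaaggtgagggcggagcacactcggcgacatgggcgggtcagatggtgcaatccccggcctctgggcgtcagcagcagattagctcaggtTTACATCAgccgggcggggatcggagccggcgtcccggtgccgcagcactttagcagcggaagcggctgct
Nupr1: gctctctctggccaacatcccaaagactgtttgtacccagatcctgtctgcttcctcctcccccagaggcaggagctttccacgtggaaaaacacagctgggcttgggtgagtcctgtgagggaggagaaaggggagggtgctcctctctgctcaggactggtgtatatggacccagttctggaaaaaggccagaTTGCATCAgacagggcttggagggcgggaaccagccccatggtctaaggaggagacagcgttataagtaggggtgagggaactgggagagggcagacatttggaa
Of the 10 members, 9 had an entry in this RefSeq promoter table, and Atf3 was not among them. Chac1 and Trib3 were the 2 members with the response element in the window, beginning 167 and 21 bases upstream of the start. It was present in 3.98% of all 33469 promoters in the table. The AP-1 element TGANTCA was found in Ddit3, 241 bases upstream, and in Phgdh, 116 bases upstream, against 7.33% of all promoters. The ATF/CREB element TGACGTCA was in 0 of the 9 member promoters and in 1.83% of all. These matches are letters in a window and not tested sites.

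Under MMS, 6 of the 8 members kept were lower than Control while Atf3 was higher and Atf4 itself lay near its Control level. At least 2-fold below Control were these 6 of 8, in MMS Day 2 (9.47% of all genes kept) and again in MMS Day 4 (27%). The same 6 genes were called on both days (9.12% of all genes kept), namely Ddit3, Ddit4, Trib3, Chac1, Asns and Psat1. Under Bleomycin 1 of 8 was called lower, Psat1, in Day 2 (9.4% of all genes kept) and in Day 6 (19.6%). At least 2-fold higher was Atf3 alone, in MMS Day 2 (1.19% of all genes kept) and MMS Day 4 (1.26%), and 0 of 8 members were called higher under Bleomycin (0.818% and 1.41%). The median over the 8 members was -1.19, -2.03, -0.32 and -0.44, and over the 9 members on the array with no signal filter -1.04, -1.97, -0.30 and -0.44. Among the 2143 genes that reached a signal of 6, which all 8 members did, the shares at least 2-fold lower were 10.4%, 29.2%, 9.71% and 20%.

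**Figure D1:**
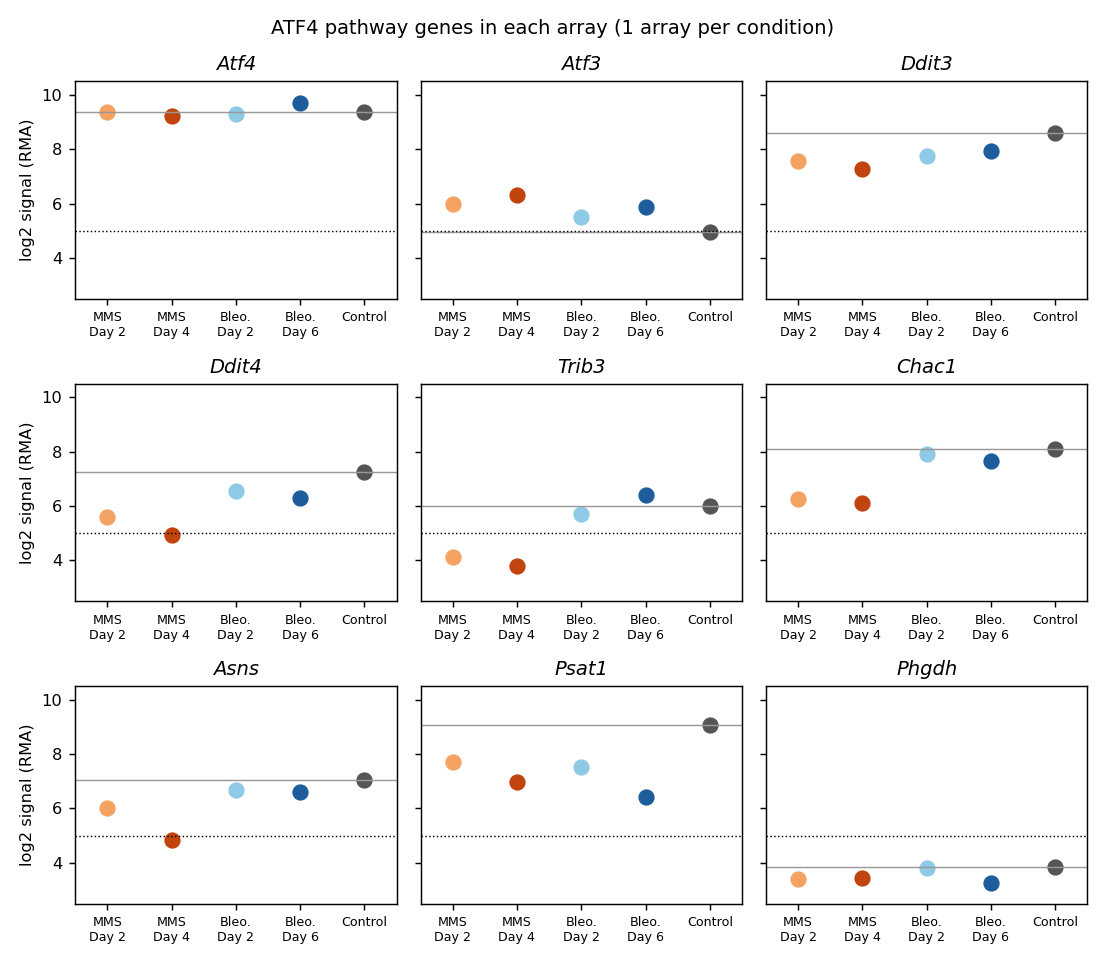
Log2 signal (RMA, vertical axis) of the 9 genes on the array in the MMS, Bleomycin and Control arrays, 1 point per array. The grey line is the Control value and the dotted line the signal limit of 5. Trib3 and Chac1 lie far below Control in both MMS arrays and close to it in both Bleomycin arrays, while Atf3 lies above Control in all 4 treated arrays.

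Atf4, the transcription factor at the center of the pathway, had log2 signals of 9.35 and 9.22 in MMS Day 2 and Day 4 and 9.31 and 9.71 in Bleomycin Day 2 and Day 6, against 9.36 in Control. Its largest difference from Control was 0.35, a 1.27-fold higher signal, in Bleomycin Day 6, and the MMS arrays differed from Control by -0.01 and -0.14. The array reads mRNA alone, so the amount of ATF4 protein was not measured.

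Atf3, a stress-induced repressor and activator of the ATF/CREB family, was the only member above Control in all 4 treated arrays, as were 11.5% of the genes kept. Its signals were 5.99 and 6.30 in MMS Day 2 and Day 4 and 5.52 and 5.87 in Bleomycin Day 2 and Day 6, against 4.95 in Control. It was 2.06-fold and 2.55-fold higher under MMS and 1.48-fold and 1.89-fold higher under Bleomycin. The study picked Atf3 on these arrays, so its direction here is no independent evidence. By RT-qPCR in replicate lenses the study then found Atf3 more than 2-fold higher under MMS. It placed Atf3 among genes that rose at its earliest time and then decreased. On the arrays MMS Day 4 lay above MMS Day 2, an order that 1 array each cannot settle. Its signal was higher under MMS than under Bleomycin by 0.48 in the Day 2 arrays and by 0.43 in the later ones, neither of them a call. Its Control signal lay just under the limit of 5, and with each array centred on 69 olfactory receptor probe sets, genes known mainly from the nose, the MMS differences were 0.94 and 0.99 and ended both calls.

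Atf3 stood above the other members, Atf4 included, in every comparison with Control. Its difference exceeded the median of the 7 other kept members by 2.40 and 3.44 under MMS and by 0.92 and 1.36 under Bleomycin. All 7 lay below Atf3 in each of these. Over the genes kept, 41 and 22 lay higher than Atf3 in MMS Day 2 and Day 4, and 155 and 68 in Bleomycin Day 2 and Day 6. Among the 2238 genes whose Control signal lay within 0.5 of that of Atf3, with no filter on signal, Atf3 was one of 16 at least 2-fold higher on MMS Day 2 (0.715%) and of 17 on MMS Day 4 (0.76%).

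The 5 genes whose pattern was most like that of Atf3 included no member. By the root mean square distance between the 4 differences from Control, the nearest of the kept genes were Mir324 (distance 0.18), H2aj (0.20), Mir483 (0.22), Chst13 (0.24) and Prm2 (0.24). Mir324 and Mir483 are microRNA genes, H2aj encodes a histone H2A variant, Chst13 a sulfotransferase of chondroitin and Prm2 a protamine of sperm. Signals of Prm2 reached 5 in MMS Day 4 alone, with 5.40 there and 4.11 in Control. Atf4 was at a distance of 1.01 and ranked 858 among the kept genes, and the other 6 members were between 2.00 and 2.95 away.

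Ddit3, which encodes CHOP, a factor of stress-induced cell death, had 7.56 and 7.27 in MMS Day 2 and Day 4 and 7.73 and 7.93 in Bleomycin Day 2 and Day 6, against 8.59 in Control. Every treated array was below Control, and the MMS arrays were the lowest, 2.05-fold and 2.5-fold lower. With each array centred on the median of its kept probe sets the MMS differences of Ddit3 were -0.76 and -0.70 and no longer calls. The gap between drugs was small on Day 2, at -0.18 for MMS minus Bleomycin, and -0.67 in the later pair.

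Trib3, a pseudokinase that ATF4 and CHOP induce and that restrains both, had the widest split of the members between the drugs in the later pair and, after Chac1, the next widest on Day 2. It had 4.13 and 3.78 in MMS Day 2 and Day 4 and 5.69 and 6.42 in Bleomycin Day 2 and Day 6, against 5.98 in Control. Both MMS arrays were under the signal limit, 3.62-fold and 4.61-fold below Control, while Bleomycin Day 6 was the only treated array above Control for Trib3. Below 5 the size of a fall is poorly resolved.

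Chac1, an enzyme that degrades glutathione, had 6.26 and 6.11 in MMS Day 2 and Day 4 and 7.91 and 7.64 in Bleomycin Day 2 and Day 6, against 8.08 in Control. It was 3.52-fold and 3.92-fold lower under MMS, and 1.12-fold and 1.35-fold lower under Bleomycin. All 5 signals lay more than 1 above the signal limit, unlike those of Trib3.

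Ddit4, also called REDD1, an inhibitor of the growth kinase mTORC1, had 5.58 and 4.94 in MMS Day 2 and Day 4 and 6.54 and 6.28 in Bleomycin Day 2 and Day 6, against 7.24 in Control. Its differences of -1.67 and -2.30 under MMS were calls, and those of -0.71 and -0.96 under Bleomycin were not. The order of the treated arrays was the same as for Chac1, with MMS Day 4 lowest and Bleomycin Day 2 highest.

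Asns, asparagine synthetase, had 6.01 and 4.83 in MMS Day 2 and Day 4 and 6.69 and 6.6 in Bleomycin Day 2 and Day 6, against 7.04 in Control. MMS Day 4 minus MMS Day 2 was -1.18, and this was the 1 call among 8 members between the MMS arrays (7.84% of all genes kept were lower). The difference between the Bleomycin arrays was -0.09. The Day 2 difference from Control of -1.04 lay at the limit and was -0.76 with median centring.

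Psat1, an enzyme of serine synthesis, departed from this split. It had 7.71 and 6.98 in MMS Day 2 and Day 4 and 7.53 and 6.43 in Bleomycin Day 2 and Day 6, against 9.07 in Control. All 4 differences were calls, and the lowest array was Bleomycin Day 6, 6.23-fold below Control. Psat1 was the only member called lower on Day 6 than on Day 2 of Bleomycin, with -1.10 (4.04% of all genes kept were lower), which was -0.93 with median centring. Between the drugs it had 0.18 in the Day 2 pair and 0.55 in the later pair, higher in MMS in both.

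Phgdh, which precedes Psat1 in serine synthesis, had 3.42 and 3.44 in MMS Day 2 and Day 4 and 3.83 and 3.28 in Bleomycin Day 2 and Day 6, against 3.84 in Control. All of these signals were below the limit, and no difference reached 2-fold.

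**Figure D2:**
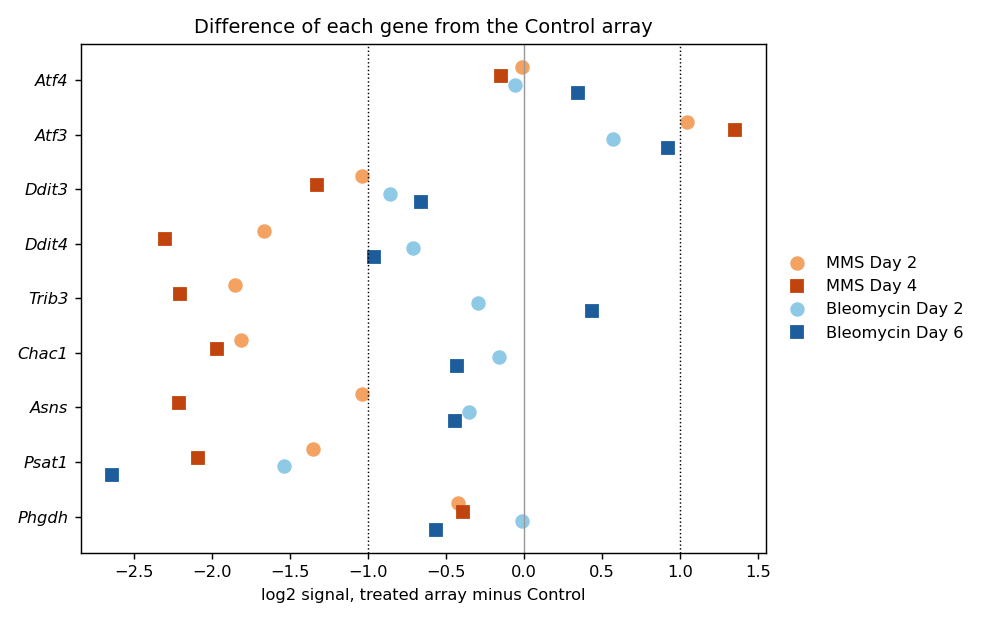
Log2 difference from Control (horizontal axis) of each gene in the 4 treated arrays, with circles for Day 2 and squares for the later day. Dotted lines mark 2-fold. Ddit4, Trib3, Chac1 and Asns have both MMS points left of both Bleomycin points, Psat1 is past 2-fold in all 4, and Atf3 is right of 0 throughout.

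The drugs were also compared directly, in pairs that share neither an array nor the Control. With both drugs at Day 2 (MMS minus Bleomycin), 2 of 8 members were at least 2-fold lower, Chac1 with -1.65 and Trib3 with -1.56, where 0.521% of all genes kept, 21 genes, were (0.607% of those reaching a signal of 6). Only 3 of the 4033 genes lay lower than Chac1 and 5 lower than Trib3. Ddit4 had -0.96 and Asns -0.69, while Atf3 had 0.48. In MMS Day 4 minus Bleomycin Day 6, where days differ, 4 of 8 were lower (4.29% of all genes kept and 5.37% of those reaching 6): Trib3 with -2.64, Asns with -1.77, Chac1 with -1.54 and Ddit4 with -1.34. Trib3 was 6.25-fold lower, and 1 gene of the 4033 lay below it. No member was called higher in MMS than in Bleomycin (1.39% of genes kept on Day 2 and 0.893% later).

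Chac1 and Trib3 were 2 of just 6 genes at least 2-fold lower in MMS than in Bleomycin in both pairs (0.149% of the genes kept). The others, named because the group is so small, were C10h17orf58, Pln (phospholamban), Stradb (a pseudokinase partner of LKB1) and Tp53inp1 (a p53 target). Of the 35 genes called below Control in both MMS arrays and in neither Bleomycin array (0.868% of the genes kept), 5 were members: Ddit3, Ddit4, Chac1, Trib3 and Asns. Of the 4 epithelium markers, 3 and 4 were at least 2-fold below Control in MMS Day 2 and Day 4, and 4 in each Bleomycin array. Between the drugs their median was 1.14 in the Day 2 pair, where Foxe3 was the lowest with -0.16, and 0.16 in the later pair, where Pax6 was the lowest with -0.13. Their part in the members' differences was not tested.

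**Figure D3:**
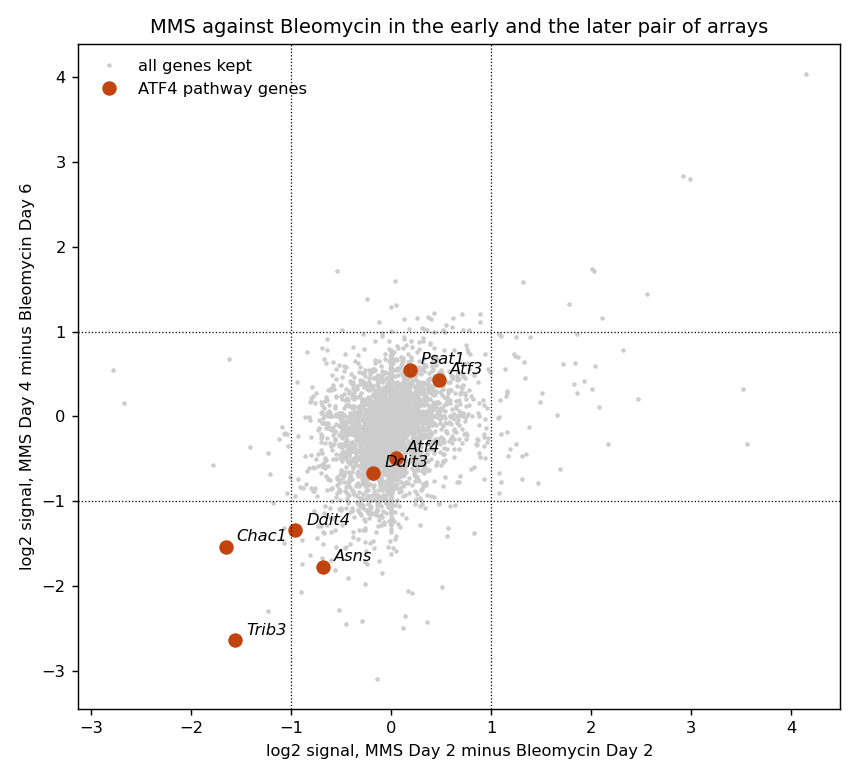
Log2 difference between the drugs in the Day 2 pair (horizontal axis) and the later pair (vertical axis) for the 4033 genes kept (grey) and the 8 kept ATF4 pathway genes (red). Dotted lines mark 2-fold. Chac1 and Trib3 lie past 2-fold in both pairs, Ddit4 and Asns in the later pair, and Psat1 and Atf3 lie above 0 in both.

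Few kept genes with the response element were lower in MMS than in Bleomycin on Day 2, and the other ATF4 targets that carry it were not lower there. Of the 75 kept genes with the element in their promoter, 3 were at least 2-fold lower in MMS on Day 2 than in Bleomycin (4%), namely Chac1, Trib3 and C10h17orf58, against 13 of 3324 without it (0.391%). In the later pair the shares were 9.33% with the element and 4.45% without it. Both members among the 3 of the Day 2 pair had been chosen as ATF4 targets, and C10h17orf58 was the only other gene. The larger share with the element on Day 2 is therefore no independent evidence. Of a list of 62 symbols of other ATF4 targets, 40 had a promoter in the table and 13 of these the element. In the Day 2 pair the 9 of them that passed the signal filter had differences between -0.19 and 1.65 with a median of 0.00. Of these, 0 were at least 2-fold lower. Nupr1, whose promoter is printed above, was the one at 1.65. It had 6.14 and 4.36 in MMS Day 2 and Day 4 and 4.48 and 4.35 in Bleomycin Day 2 and Day 6, against 6.85 in Control. Among treated arrays it was highest in MMS Day 2, where Chac1 and Trib3 were low. In the other treated arrays Nupr1 was below the signal limit, so the size of its difference is poorly resolved. In the later pair 1 of the 9 was at least 2-fold lower, Yars1, a tRNA synthetase, with -1.06.

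Other ATF4 targets were called lower in a larger share than all genes kept in both Day 2 arrays. In MMS Day 4 and Bleomycin Day 6 their shares were closer to the background. Of the 62 symbols, 47 were on the array and 30 passed the signal filter. At least 2-fold lower than Control were 8 and 11 in MMS Day 2 and Day 4 and 8 and 7 in Bleomycin Day 2 and Day 6, where 9.47% and 27% and then 9.4% and 19.6% of all genes kept were. Counted in all 4 arrays were Ero1a and Vldlr, which passed the filter through Control alone, with 6.71 and 5.81 there. Of the 30, 0 were 2-fold higher in any array, which is near the background of 0.818% to 1.41%. This count depends on which genes were listed. Gdf15, placed with the p53 targets below and not in this list, had 1.98, 1.21, 1.42 and 2.62. The medians were -0.35, -0.74, -0.19 and -0.32, closer to those of all kept genes than the members' medians under MMS. Median centring and quantile normalization brought the Bleomycin Day 6 count to 4 each.

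Eprs1, the synthetase that charges glutamate and proline tRNAs, had the largest difference of this list under MMS, with 6.06 and 4.85 in MMS Day 2 and Day 4 and 6.97 and 6.93 in Bleomycin Day 2 and Day 6, against 8.72 in Control. Of the 12 aminoacyl-tRNA synthetases kept, 1, 3, 1 and 1 were at least 2-fold lower, Eprs1 in every array, with Sars1 and Lars1 in MMS Day 4, shares near or under those of all genes kept. Slc38a2, an amino acid transporter, had -1.77, -3.53, -1.25 and -1.25. Ero1a, an oxidase of the endoplasmic reticulum, had -2.31, -3.72, -2.26 and -3.55. It passed the filter through Control alone (6.71), with treated signals of 4.40, 2.99, 4.45 and 3.16, so the size of its fall is poorly resolved. Vegfa, a growth factor for vessels, had -1.86 and -2.79 under MMS and -2.33 in Bleomycin Day 6, with Bleomycin Day 2 just past the 2-fold limit. These genes were called in all 4 treated arrays, as Psat1 was.

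**Figure D4:**
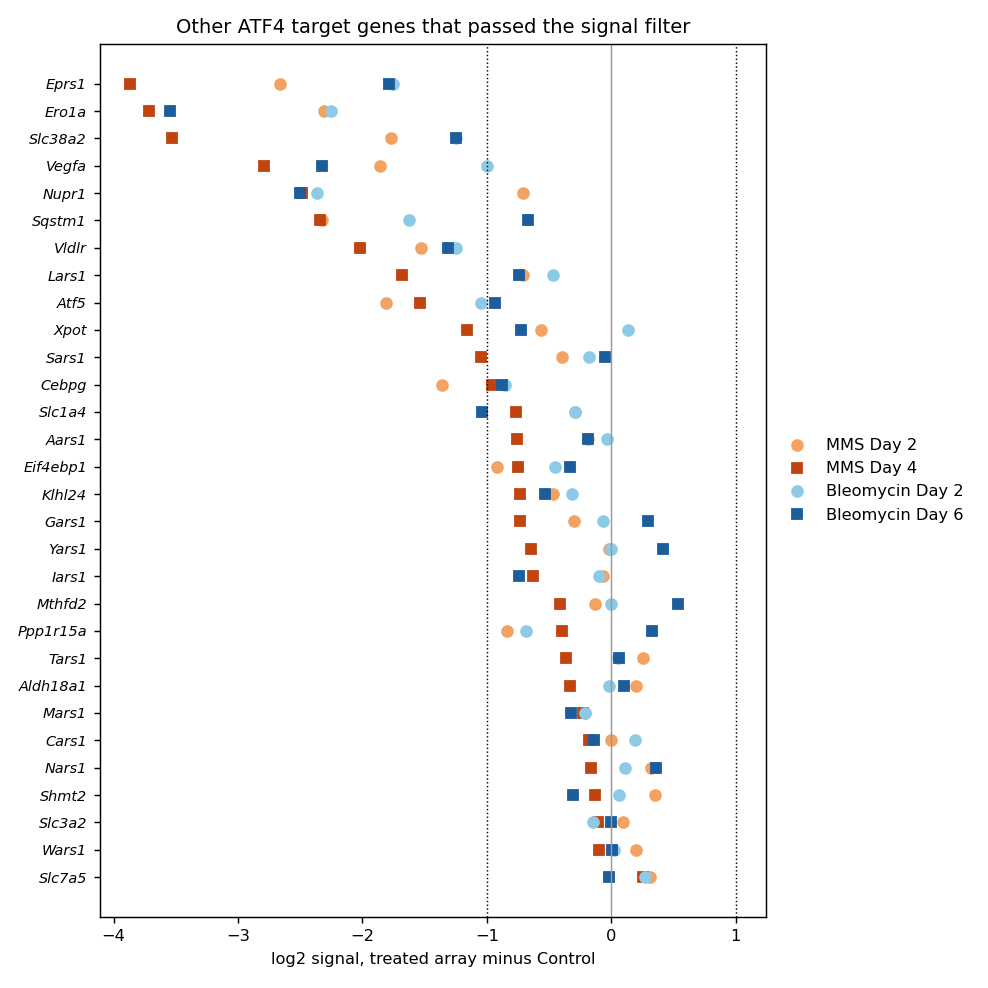
Log2 difference from Control (horizontal axis) of the 30 other ATF4 target genes kept, with circles for Day 2 and squares for the later day. Dotted lines mark 2-fold. Points past 2-fold all lie on the lower side, led by Eprs1, Ero1a, Slc38a2 and Vegfa, while Slc7a5, Wars1 and Slc3a2 lie close to 0.

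Upstream of ATF4, the genes for the eIF2 alpha kinases were dim. Eif2ak3, the kinase PERK that senses unfolded protein, had signals between 2.92 and 3.40 in treated arrays and 3.74 in Control, and Eif2ak4, the amino acid sensor GCN2, between 2.98 and 3.13 against 4.08. Of 13 genes of this group on the array 6 were kept, and 0, 2, 0 and 0 of them were called lower, which for MMS Day 4 is near the 27% of all genes kept. These 2 were Eif2s1, which encodes eIF2 alpha itself, and Dnajc3, a PERK inhibitor, with -1.23 and -1.20 in MMS Day 4. Dnajc3 reached a signal of 5 in Control alone, with 5.52. Ppp1r15a, the phosphatase subunit that reverses the response, had -0.84, -0.40, -0.69 and 0.33.

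Genes of the other arms of the endoplasmic reticulum stress response, run by ATF6 and XBP1, had shares of lower calls near or under those of all genes kept. Of 25 kept, 2, 7, 1 and 4 were at least 2-fold lower, against 9.47%, 27%, 9.4% and 19.6% of all genes kept, and 0, 0, 0 and 1 higher, with medians of -0.07, -0.62, -0.40 and -0.42. Hspa5, the chaperone BiP and the usual marker of this response, had 8.02, 7.45, 7.65 and 7.78, against 8.05 in Control. Atf6 itself was below Control in each, with -1.40, -2.37, -1.24 and -3.03, and Xbp1 had -0.18, -1.11, -0.44 and -0.62. The gene called higher was Dnajb9, an XBP1 target, with 1.25 in Bleomycin Day 6. With median centring the MMS Day 4 median was 0.00, and with centring on olfactory receptors 12 genes were called lower there.

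Within the ATF and CREB family, Atf3 was alone in being called higher. Of 22 relatives on the array 8 were kept, which include Cebpg and Atf5. Of these 8, 5, 6, 5 and 4 were at least 2-fold lower, a larger share than of all genes kept, and 0 higher. Over the 22 with no signal filter the medians were -0.01, -0.04, -0.02 and -0.04. Atf5, an ATF4 target and close relative, had 6.86, 7.13, 7.62 and 7.73, against 8.67 in Control. Atf7 had differences of -1.11, -1.77, -1.11 and -1.41, and reached a signal of 5 in Control alone, with 5.50. Among AP-1 genes, whose proteins pair with ATF3, Fosl1 had 1.77, 0.46, 1.14 and 0.84 over a Control signal of 3.99, and Klf4, an immediate early factor, was the other of its list called higher, with 1.04 in Bleomycin Day 6. Of the 10 kept of that list, 1, 3, 1 and 1 were called lower. These shares were near or under the 9.47%, 27%, 9.4% and 19.6% of all genes kept. Among those called were Dusp1, a MAP kinase phosphatase, with -1.88, -2.85, -2.24 and -0.42, and Egr1, an immediate early factor, with -0.27, -1.05, -0.98 and -2.26. Fos had -0.90, -0.53, -0.75 and 0.84, and Jun, whose mean over its probe sets stayed below 5, differed from Control by at most 0.09. Of 10 p53 targets kept, 5, 3, 6 and 8 were at least 2-fold higher, against 1.19%, 1.26%, 0.818% and 1.41% of all genes kept. Their medians were 1.12, 0.52, 1.39 and 2.09. The study had picked Cdkn1a, Mdm2, Gdf15, Plk2 and Eda2r, and Fosl1 above, from these arrays as higher under MMS. All p53 targets called under MMS were among these genes, so neither the counts there nor the direction of these genes is independent evidence. The same Control array also enters the Bleomycin counts. By RT-qPCR in replicate lenses the study then found each of these genes more than 2-fold higher under MMS. Plk2, Eda2r and Fosl1, with Control signals of 4.06, 2.91 and 3.99, were kept only through treated arrays in which they were called. Plk3 was kept only because of its Bleomycin Day 6 value (5.14), and that array is also where it was called.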

How the data were processed

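RNA of whole rat lenses had been hybridized to 5 Rat Gene 2.0 ST arrays, 1 per condition. The deposited values are log2 signals, which the authors produced by RMA in R, a method that corrects background, normalizes between arrays and sums up the probes of a set. They were used as deposited. Precision is limited by the number of arrays and by signal over background, with array medians between 2.84 and 3.02. Symbols came from the platform annotation, where 18511 of 36685 probe sets had 1 symbol, and probe sets of a gene were averaged. Genes reaching a log2 signal of 5 in any array were kept, and a difference of at least 2-fold was called, both after the study's methods. Differences, counts and medians used Python 3.11.15, numpy 2.4.6 and pandas 2.3.3, and the figures were drawn with matplotlib 3.10.9. The steps were tested on simulated data. Promoter sequences are from RefSeq, build GRCr8.

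The members and gene lists were chosen with earlier results of these data known. Named were all members, up to 4 genes of each list with the largest difference from Control, 9 genes of the pathway fixed by name, and the 5 genes nearest to Atf3. Chosen after their values were seen were Nupr1, Vldlr, Sars1, Lars1, Dnajb9, Klf4, Yars1, Slc7a5, Wars1, Slc3a2 and the genes lower in MMS in both pairs. Tried as alternatives were dropping the signal filter, setting it at 6, centring on the median of kept probe sets or on olfactory receptor probe sets, quantile normalization, and the brightest probe set of each gene.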

Additional observations from a re-analysis of the deposited data

How the results depend on the processing

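The scaling between arrays cannot be settled from 1 array per condition, and it decides the calls that lie near 2-fold. Median centring raised the median of all kept genes by 0.27, 0.63, 0.28 and 0.46 (MMS Day 2 and Day 4, then Bleomycin Day 2 and Day 6), and the share of called genes that were lower, 88.8%, 95.5%, 92.0% and 93.3% as deposited, became 65.1%, 60.0%, 68.9% and 68.1%. With quantile normalization the shares were 73.5%, 85.9%, 81.5% and 83.3%, and unfiltered 79.4%, 77.6%, 82.7% and 78.6%. No called difference changed its direction under any alternative tried, though centring shifts of this size could not have reversed a call. The differences of Atf3 from the median of the other members stayed on their side of 2-fold with quantile normalization and without the filter. The other alternatives could not move these differences. Centring cancels out in them, each member on the array has 1 probe set, and all kept members reached a signal of 6. No paired analysis was possible because each condition has 1 array.

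Under median centring the members' median was -0.92 in MMS Day 2 and -1.40 in MMS Day 4, and in MMS Day 4 minus Bleomycin Day 6 it was -0.84, against -0.92 with quantile normalization and -0.67 without the filter. Members called lower became 0 in MMS Day 4 minus MMS Day 2 with median centring, and 0 in Bleomycin Day 6 minus Bleomycin Day 2 under either that or quantile normalization. Both of these called 1 member, Atf3, higher in Bleomycin Day 6. Centring on olfactory receptors called 0 members higher in either MMS array and 2 lower in either Bleomycin array.

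For other ATF4 targets, median centring gave 4 lower in each Bleomycin array and a median of -0.12 in MMS Day 4. Quantile normalization gave 5 lower in Bleomycin Day 2 and 4 in Bleomycin Day 6, centring on olfactory receptors gave 18 lower and a median of -1.11 in MMS Day 4, and no signal filter gave 1 higher in each MMS array. For the endoplasmic reticulum stress genes, median centring gave 1 higher in each MMS array, 1 lower in MMS Day 2, 2 in MMS Day 4 and 0 in Bleomycin Day 2, with a median of 0.0031 in MMS Day 4. Quantile normalization gave 1 lower in MMS Day 2 and 2 in MMS Day 4, centring on olfactory receptors 12 in MMS Day 4, and the filter at 6 left 0 higher in Bleomycin Day 6. The cause was not tested.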

Other observations

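Neighbours of the members in amino acid metabolism and around mTORC1 mostly stayed within 2-fold of Control. Of 7 kept genes of serine, one-carbon, aspartate and asparagine metabolism, 0 were 2-fold apart from Control in either MMS array. Of all genes kept, 9.47% and 27% were lower there. In Bleomycin Day 6, 1 of the 7 was lower (19.6% of all genes kept), Slc1a4, a transporter of small neutral amino acids, with -1.04. Mthfd2, a mitochondrial folate enzyme, had -0.13 and -0.41 in MMS Day 2 and Day 4 and 0.00 and 0.54 in Bleomycin Day 2 and Day 6.

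Sesn3, a sestrin that shares its family with Sesn2, had differences of -0.64, -1.48, -0.69 and -1.83, lower in the later array of each drug. Of 9 kept genes around mTORC1 it was the 1 called lower, in both later arrays (27% and 19.6% of all genes kept). Of 4 kept neighbours of Trib3 and Chac1, 1, 2, 0 and 2 were called lower, against 9.47%, 27%, 9.4% and 19.6% of all genes kept. Trib1, a relative of Trib3, had -1.01, -1.20, -0.97 and -1.01, nearly equal under both drugs. It reached a signal of 5 in Control alone, with 5.15. Gclm, a subunit of the enzyme that makes glutathione precursor, had -0.84, -1.18, -0.62 and -1.28, and Gclc, the other subunit, lay above Control in all 4 arrays by 0.17 to 0.39.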
